A study of Homo sapiens with 5 samples.

Results

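The genes that supply deoxynucleotides around RRM2 were followed in IMR-90 cells, a line of normal human lung fibroblasts, after knockdown of the histone methyltransferase NSD2. They are 9 genes taken by symbol from the table of normalized counts, RRM1, RRM2, RRM2B, TYMS, TK1, DTYMK, DUT, DCTPP1 and SAMHD1, out of 26364 listed genes. All 9 passed the filter on low counts and were among the 11313 genes tested. They were chosen by function with the comparison of these same libraries already known, so the differences between groups are given for them as a description, without a p-value.

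The mRNA-seq libraries came from cells harvested 24 hr after siRNA transfection, 2 of cells given a control siRNA (Ctr-KD cells) and 3 of cells given an siRNA against NSD2 (NSD2-KD cells). Each NSD2-KD library had its own siRNA (NSD2-1, NSD2-2 or NSD2-3), so siRNA and replicate cannot be told apart there. All 5 libraries were from the same cell line at the same time point, and none was from cells without siRNA. A normalized count is the number of reads on a gene divided by a factor for the size of its library.

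Deoxynucleotides are made from ribonucleotides by ribonucleotide reductase, in which the large subunit RRM1 pairs either with RRM2, made mainly in S phase, or with RRM2B, which serves cells outside S phase and is induced by DNA damage. Thymidylate comes from deoxyuridylate through TYMS, with a folate as the carbon donor, or from thymidine through TK1, and DTYMK adds the next phosphate on both routes. DUT, DCTPP1 and SAMHD1 work in the other direction: DUT splits dUTP and keeps uracil out of DNA, DCTPP1 splits dCTP and its modified forms, and SAMHD1 breaks deoxynucleoside triphosphates down to nucleosides. Many genes of this supply are known targets of E2F factors, which the retinoblastoma protein family holds in check.

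Reads on genes ranged from 2473691 to 2845063 per library, and a floor of 3 reads corresponded to 2.76 to 3.28 normalized counts. NSD2, listed under its older symbol WHSC1, had normalized counts of 463 and 443 in Ctr-KD cells and 90.2, 81.9 and 87.9 with NSD2-1, NSD2-2 and NSD2-3. Of 12 fibroblast markers 11 passed the filter, the exception being S100A4, with COL1A1 highest in every library. Of 15 markers of other cell types, 12 had at most 3 reads in every library and 7 had none, EPCAM and PTPRC being among the 12, while KRT8, MYH11 and VWF lay above the floor in at least 1 library. Between the Ctr-KD libraries the chi-square of the counts was 1.05 per degree of freedom (12373 genes), close to counting noise. It was 3.87 to 5.08 for pairs of a Ctr-KD and an NSD2-KD library and 5.05 to 5.29 between NSD2-KD libraries. The NSD2-KD libraries thus differed from each other about as much as from the Ctr-KD libraries, or more. The study's methods call the Ctr-KD libraries biological replicates, whether they came from separate cultures is not seen in the values, and p-values below measure only the spread between these libraries.

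The promoters of RRM2, TK1 and TYMS are shown as examples. RRM2 had the most even values of the 9 genes across the siRNAs, closer than its counting error can resolve. TYMS and TK1, both made for S phase, varied with the siRNA. By the SD of log2 values over the NSD2-KD libraries, RRM2B (0.39) and DCTPP1 (0.34) varied more than TK1 (0.28). A link between the marked letters and this spread was not tested. Each stretch is the 150 bases before the start site in GRCh37, 5′ to 3′ on the strand of the gene, from RefSeq promoter windows whose sequence was matched to that build (the windows belong to GRCh38.p14). Capitals mark the CCAAT box, written ATTGG where it lies on the other strand, and the E2F site TTCCCGC, here on the other strand as GCGGGAA, which extends to the consensus TTTCCCGC (GCGGGAAA) in TYMS.
RRM2 (chr2:10262716-10262865, plus strand): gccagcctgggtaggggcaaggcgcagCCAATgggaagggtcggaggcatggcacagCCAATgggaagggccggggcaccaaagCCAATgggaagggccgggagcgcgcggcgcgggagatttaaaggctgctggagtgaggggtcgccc
TK1 (chr17:76183134-76183283, minus strand): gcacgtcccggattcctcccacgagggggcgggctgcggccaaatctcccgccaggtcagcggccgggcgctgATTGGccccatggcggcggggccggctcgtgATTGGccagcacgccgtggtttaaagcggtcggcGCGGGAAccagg
TYMS (chr18:657503-657652, plus strand): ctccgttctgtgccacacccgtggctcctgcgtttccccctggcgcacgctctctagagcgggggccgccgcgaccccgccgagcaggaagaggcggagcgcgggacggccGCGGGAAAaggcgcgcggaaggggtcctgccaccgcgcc
In RRM2 the CCAAT box came 3 times, with first bases at -123, -93 and -66 from the start site. In TK1 it came 2 times, at -77 and -46, with the E2F site at -12, and TYMS had the E2F site alone, at -39.

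Windows running from 250 bases before to 50 after the start site were at hand for 8 of the 9 genes, all but RRM2B. On either strand the CCAAT box occurred 2 times in DTYMK and in SAMHD1 and 1 time in RRM1, whose window also held the E2F site TTCCCGC and the element TTTGAA. The windows of DUT at its canonical start and of DCTPP1 held none of the letters sought. A further DUT window 768 bases downstream held the E2F consensus 2 times, the E2F site TTCCCGC 1 time and the element TTTGAA 2 times. The windows of RRM1 and DCTPP1 belong to start sites other than the canonical ones. Over 35116 windows of all genes, 34.6% held CCAAT at least 1 time, 10.8% at least 2 times and 3.26% at least 3 times. The E2F site TTCCCGC was in 6.55% of these windows, the consensus (TTTCCCGC, TTTCGCGC, TTTGCCGC or TTTGGCGC, the first of which contains TTCCCGC) in 3.31%, and the cell cycle element TTTGAA in 15.2%. These are matches of letters and not sites shown to be bound.

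The reductase subunits went different ways. RRM2 lay in NSD2-KD cells at less of its Ctr-KD level than any other of the 9 genes, RRM1 was lower to a smaller degree, and RRM2B overlapped between the groups. RRM2 (chromosome 2, 10262866 to 10271541, plus strand) had normalized counts of 389 and 412 in Ctr-KD cells (400.1 ± 16.1, SD, n = 2) and of 122 with NSD2-1, 128 with NSD2-2 and 124 with NSD2-3 (125 ± 2.79, SD, n = 3). All 3 NSD2-KD libraries were below both Ctr-KD libraries and within 1.04 times of each other. The log2 difference was -1.67 (standard error 0.12), on the scale of log2(normalized count + 1) as everywhere below. Each siRNA left 30.6%, 31.9% and 30.98% of the Ctr-KD mean, with 95% Poisson intervals of 25.6 to 36.3, 26.4 to 38.3 and 25.8 to 36.9%. These intervals come from the reads of the library itself, take the Ctr-KD mean as given and cover counting error only.

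**Figure D1:**
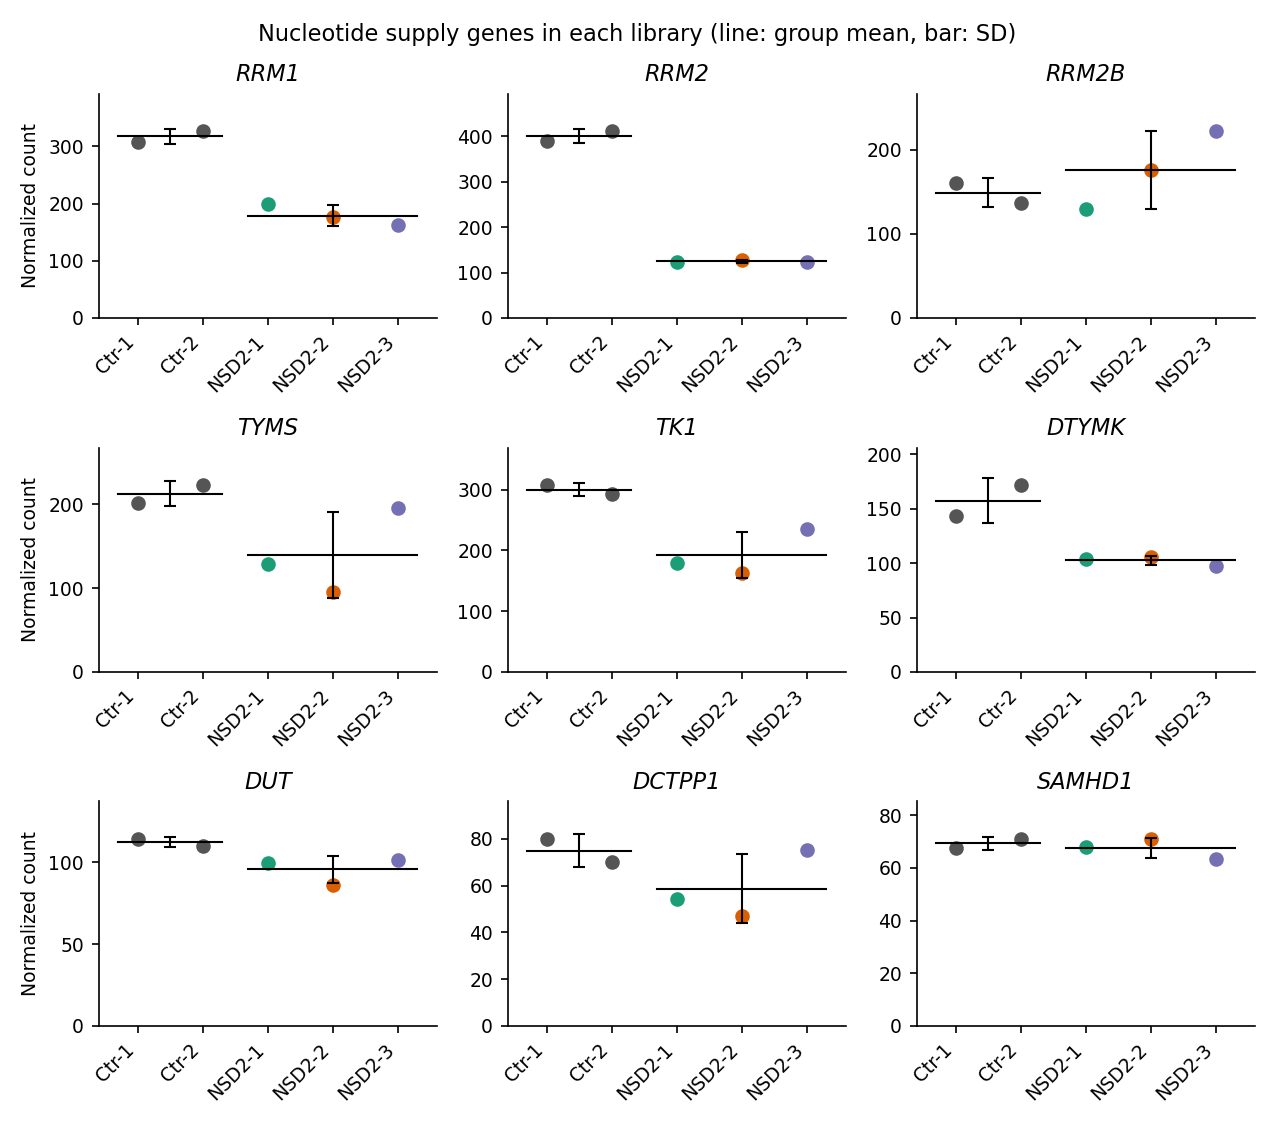
Normalized counts of the 9 nucleotide supply genes in each of the 5 libraries, 1 panel per gene with its own axis from 0; points are libraries, horizontal lines group means and bars the SD (n = 2 Ctr-KD, n = 3 NSD2-KD). The 3 NSD2-KD points of RRM2 lie between 122 and 128, far below 389 and 412, while those of TYMS spread from 95.03 to 195.

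The values of RRM2 with the 3 siRNAs lay closer together than for most genes. The SD of its log2 values over the 3 NSD2-KD libraries was 0.032, the lowest of the 9 genes, beside a median of 0.20 over all tested genes and of 0.16 over the 4219 with a mean normalized count from 100 to 500. With 133, 117 and 127 reads behind the 3 values, the libraries differed by less than the counting intervals. An SD that low cannot be resolved with these reads, so it does not set RRM2 apart from genes whose spread is of counting size.

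RRM1 (chromosome 11, 4116029 to 4160162, plus strand), the large subunit that binds the substrates, had normalized counts of 308 and 327 in Ctr-KD cells (317 ± 13.8, SD, n = 2) and of 199, 176 and 163 in NSD2-KD cells (179 ± 18.1, SD, n = 3). All 3 NSD2-KD libraries were below both Ctr-KD libraries, at 62.6%, 55.4% and 51.4% of the Ctr-KD mean, with a log2 difference of -0.83 (standard error 0.13). RRM2B (chromosome 8, 103216730 to 103251189, minus strand), the other small subunit, had 161 and 137 in Ctr-KD cells (149 ± 17.1, SD, n = 2) and 129.7, 176 and 223 in NSD2-KD cells (176 ± 46.4, SD, n = 3). It was the only member whose log2 difference was above 0 (0.21, standard error 0.22), and its groups overlapped because NSD2-1 lay below both Ctr-KD libraries and the other two siRNAs above. NSD2-1 left 87.1% of the Ctr-KD mean of RRM2B (73.3 to 103%) and NSD2-3 149% (131 to 170%), so these 2 siRNAs differed by more than counting error.

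Set against transcript length, the order of the subunits changed between the groups. Per kb of the canonical transcript (3.258 kb for RRM2, 3.142 kb for RRM1 and 4.774 kb for RRM2B), the ratio of RRM2 to RRM1 was 1.22 and 1.21 in Ctr-KD cells and 0.594, 0.701 and 0.733 with NSD2-1, NSD2-2 and NSD2-3, below 1 with each siRNA. The ratio of RRM2B to RRM2 was 0.283 and 0.227 in Ctr-KD cells and 0.723, 0.939 and 1.23 in NSD2-KD cells. RRM2B was thus the lesser of the small subunit transcripts in Ctr-KD cells and lay above RRM2 with NSD2-3 alone. No counting interval was computed for these ratios, so where they lie near 1 the order of RRM2 and RRM2B is not settled. The ratio of RRM2B to RRM1 was 0.344 and 0.275 in Ctr-KD cells and 0.430, 0.658 and 0.899 in NSD2-KD cells. These ratios are of transcripts, not of protein, and they assume the canonical isoform in every library.

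**Figure D2:**
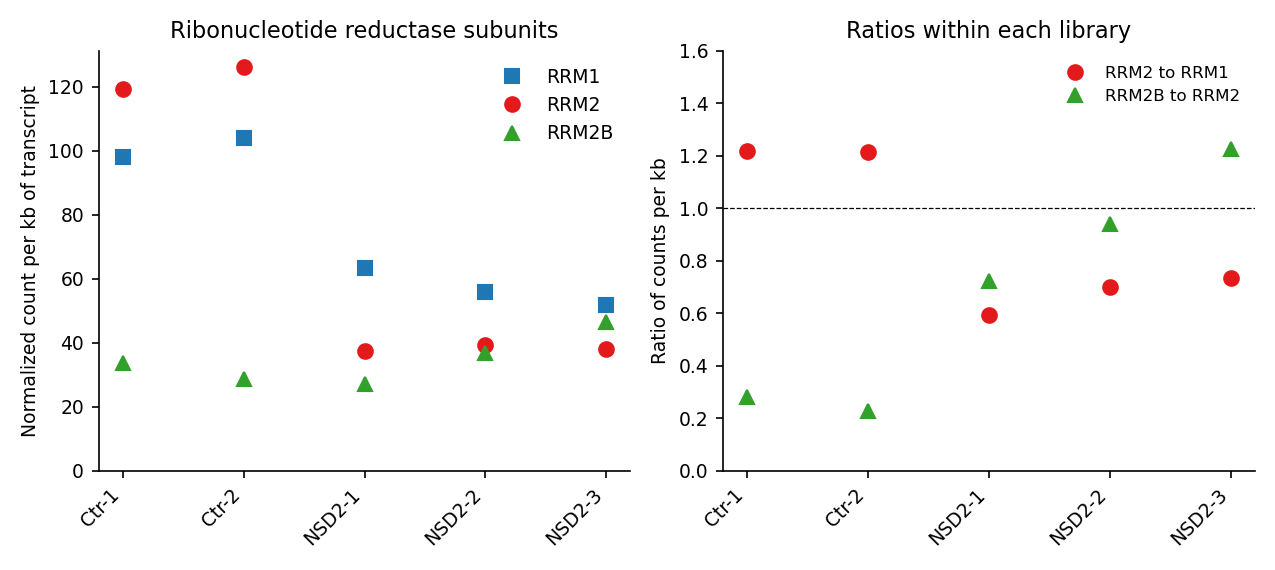
Left, normalized counts per kb of transcript for RRM1, RRM2 and RRM2B in each library; right, the ratios of RRM2 to RRM1 and of RRM2B to RRM2 per kb, with a dashed line at 1. RRM2 is above RRM1 in both Ctr-KD libraries and below it with all 3 NSD2 siRNAs, and the ratio of RRM2B to RRM2 runs from 0.227 to 0.283 in Ctr-KD cells and from 0.723 to 1.23 in NSD2-KD cells.

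The thymidylate genes all lay below their Ctr-KD levels with every siRNA, but to degrees that differed between the siRNAs for 2 of the 3. TYMS (chromosome 18, 657653 to 673578, plus strand), thymidylate synthase, had 202 and 223 in Ctr-KD cells (213 ± 15.0, SD, n = 2) and 129, 95.03 and 195 in NSD2-KD cells (139.7 ± 50.98, SD, n = 3). The value with NSD2-3 was just under the lower Ctr-KD library, and that with NSD2-2 was the lowest. The log2 difference was -0.66 (standard error 0.26). NSD2-1, NSD2-2 and NSD2-3 left 60.6% (50.97 to 71.5%), 44.7% (35.8 to 55.1%) and 91.8% (79.5 to 105%) of the Ctr-KD mean, and the highest was 2.05 times the lowest. The SD of its log2 values over the NSD2-KD libraries, 0.52, was the largest of the 9 genes.

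TK1 (chromosome 17, 76170172 to 76183133, minus strand), the thymidine kinase of the cytosol, showed the same order of siRNAs. Its normalized counts were 308 and 292 in Ctr-KD cells (299.9 ± 11.0, SD, n = 2) and 179, 163 and 235 in NSD2-KD cells (192 ± 38.1, SD, n = 3), a log2 difference of -0.66 (standard error 0.17). All 3 NSD2-KD libraries were below both Ctr-KD libraries, at 59.5%, 54.3% and 78.4% of the Ctr-KD mean. DTYMK (chromosome 2, 242615162 to 242626230, minus strand), thymidylate kinase, had 143 and 172 in Ctr-KD cells (157 ± 20.4, SD, n = 2) and 104, 106 and 97.6 in NSD2-KD cells (103 ± 4.36, SD, n = 3). Its 3 NSD2-KD libraries were close to each other, at 66.1%, 67.3% and 62.0%, all below both Ctr-KD libraries, with a log2 difference of -0.61 (standard error 0.15). TYMS and TK1 therefore spread over the siRNAs while DTYMK, which serves both of their products, did so little, with an SD of log2 values of 0.061 beside 0.28 for TK1.

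By group mean, the enzymes that split or clear deoxynucleotides lay nearer to their Ctr-KD levels than the thymidylate genes. For DCTPP1 this depended on NSD2-3. Without NSD2-KD replicate 3 its log2 difference was -0.56, beside -0.57 for DTYMK, -0.81 for TK1 and -0.93 for TYMS. DUT (chromosome 15, 48623626 to 48635570, plus strand) had 114 and 110.1 in Ctr-KD cells (112 ± 3.00, SD, n = 2) and 99.4, 86.3 and 102 in NSD2-KD cells (95.7 ± 8.24, SD, n = 3), with all 3 NSD2-KD libraries below and a log2 difference of -0.23 (standard error 0.15). DCTPP1 (chromosome 16, 30434936 to 30441351, minus strand) had 80.0 and 70.0 in Ctr-KD cells (75.0 ± 7.12, SD, n = 2) and 54.3, 47.0 and 75.2 in NSD2-KD cells (58.8 ± 14.6, SD, n = 3). Its groups overlapped because NSD2-3 lay at 100.2% of the Ctr-KD mean, whereas NSD2-1 and NSD2-2 lay at 72.4% and 62.6%, and its log2 difference was -0.37 (standard error 0.23). SAMHD1 (chromosome 20, 35518632 to 35580111, minus strand) had 67.6 and 71.0 in Ctr-KD cells (69.3 ± 2.37, SD, n = 2) and 68.1, 71.0 and 63.4 in NSD2-KD cells (67.5 ± 3.81, SD, n = 3). Its groups overlapped, and the log2 difference of -0.04 (standard error 0.16) was smaller than its error. With between 43 and 120 reads per library, differences of the size seen for DUT and DCTPP1 were near the counting error.

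**Figure D3:**
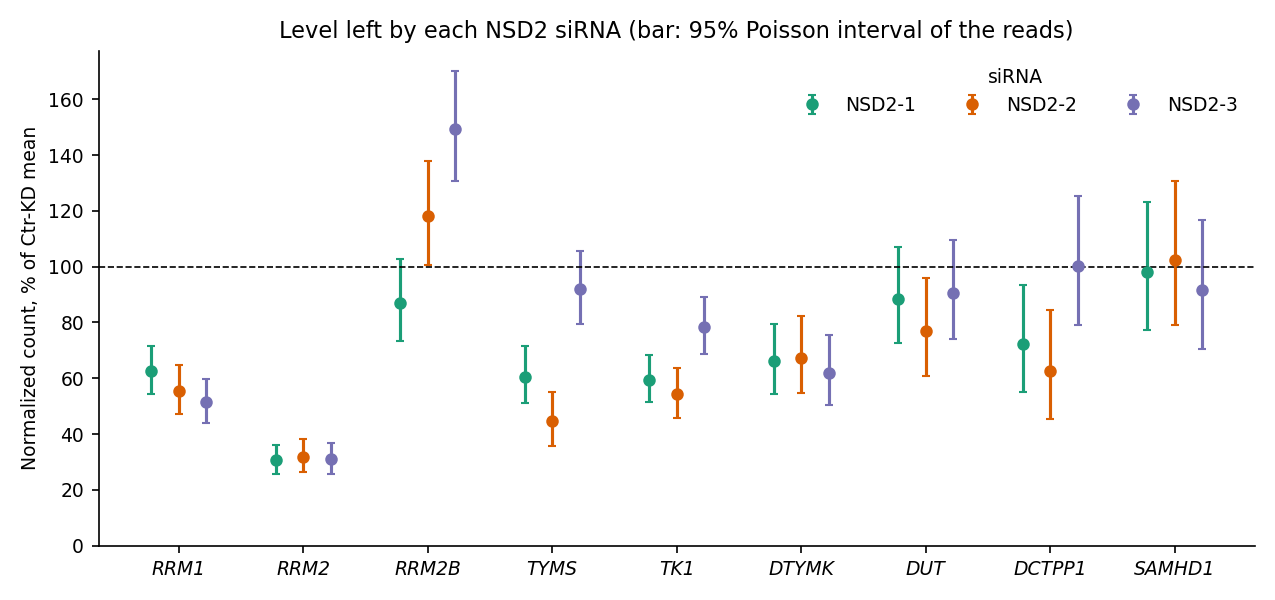
Normalized count of each nucleotide supply gene with each NSD2 siRNA, in percent of the Ctr-KD mean (dashed line at 100%); points are libraries and bars 95% Poisson intervals of their reads. The 3 points of RRM2 lie at 30.6 to 31.9%, those of TYMS at 44.7 to 91.8% and those of RRM2B at 87.1 to 149%.

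Per kb of transcript, TK1 had the highest level in both groups and SAMHD1 the lowest. No correction was made for the exon bases that TYMS, DCTPP1, DUT, SAMHD1 and RRM1 share with other genes, given below, and these could affect the order. In Ctr-KD cells the levels per kb were 209.6 ± 7.68 for TK1, 149.7 ± 19.4 for DTYMK, 132 ± 9.33 for TYMS, 123 ± 4.96 for RRM2 and 101 ± 4.38 for RRM1 (SD, n = 2). They were followed by DCTPP1 with 63.5 ± 6.03, DUT with 52.4 ± 1.40, RRM2B with 31.2 ± 3.58 and SAMHD1 with 14.9 ± 0.509. In this order DTYMK and TYMS, and TYMS and RRM2, did not differ beyond their SDs. In NSD2-KD cells RRM2 moved from place 4 to place 7, at 38.3 ± 0.855 per kb (SD, n = 3), next to RRM2B with 36.9 ± 9.72, from which it did not differ beyond the SDs. The others kept their order, at 134 ± 26.6 for TK1, 97.5 ± 4.15 for DTYMK, 86.6 ± 31.6 for TYMS, 57.0 ± 5.76 for RRM1, 49.8 ± 12.4 for DCTPP1, 44.7 ± 3.85 for DUT and 14.5 ± 0.819 for SAMHD1. From DTYMK down to DUT each gene in the NSD2-KD order overlapped with the next by their SDs, so that order rests on differences smaller than the spread between siRNAs.

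Within a library, RRM2 was lower against TYMS with each siRNA, while TK1 and DTYMK were not. The ratio of RRM2 to TYMS per kb was 0.953 and 0.913 in Ctr-KD cells and 0.470, 0.666 and 0.314 with NSD2-1, NSD2-2 and NSD2-3, all below the Ctr-KD values. That of TK1 to TYMS was 1.72 and 1.48 in Ctr-KD cells and 1.56, 1.93 and 1.36 in NSD2-KD cells, so the groups overlapped. That of DTYMK to TYMS was 1.09 and 1.18 against 1.24, 1.71 and 0.767, which put NSD2-3 below and the other siRNAs above the Ctr-KD libraries. Reads on the bases that TYMS shares with other genes were not set apart in these ratios.

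Of the 9 genes, 8 had a log2 difference below 0, and their median was -0.61, beside -0.0089 over all 11313 tested genes. In 6 of them all NSD2-KD libraries lay below both Ctr-KD libraries, as in 13.9% of all tested genes, and in none above, as in 13.8% of all. In limma over all genes 1 member, RRM2, was called lower at an adjusted p under 0.05, beside 0.053% of all tested genes, and 0 were called higher, beside 0.0354%. DESeq2 called 2 members lower, RRM1 and RRM2, beside 0.389% of all tested genes. These counts come from the contrast that was known when the genes were chosen, and nothing is read from them. Without Ctr-KD replicate 1, without Ctr-KD replicate 2, with both averaged to 1 library, or in limma without its trend, 0 members were called, while the log2 difference of RRM2 stayed at -1.71, -1.63, -1.67 and -1.67. An exact permutation test of a single gene in 2 against 3 libraries cannot go below 0.1.

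**Figure D4:**
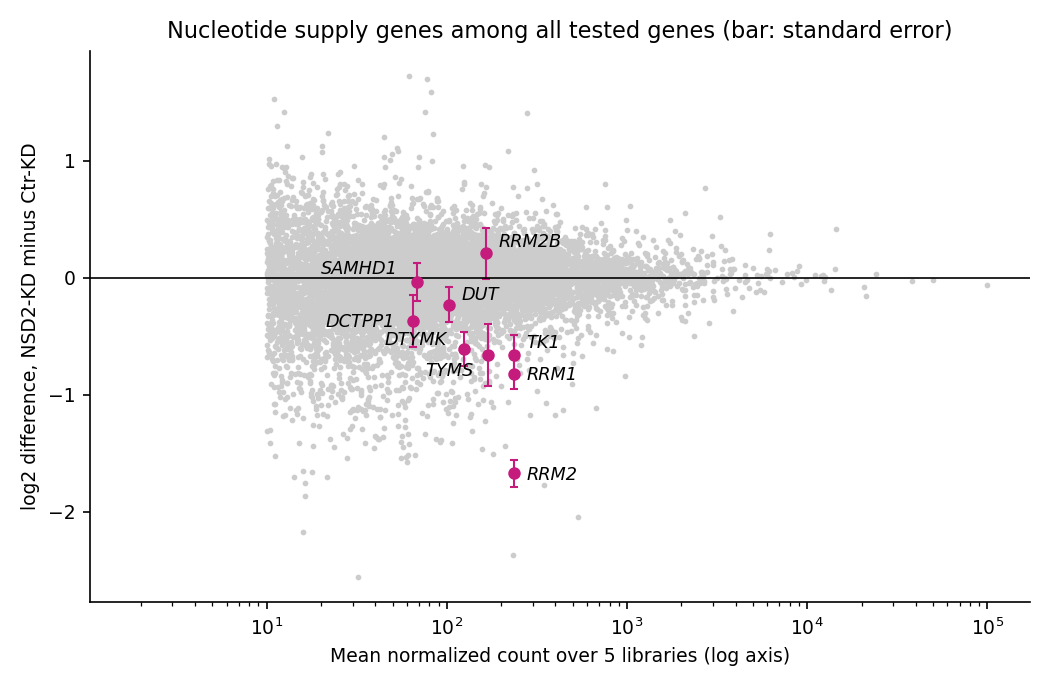
log2 difference between NSD2-KD and Ctr-KD cells against the mean normalized count over 5 libraries (log axis); grey points are the 11313 tested genes, colored points the 9 nucleotide supply genes with their standard errors. RRM2 lies at -1.67, RRM1, TYMS, TK1 and DTYMK between -0.83 and -0.61, and RRM2B at 0.21.

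The siRNAs did not rank the genes alike. NSD2-3 left the highest level of the NSD2-KD libraries in 5 of the 9 genes (RRM2B, TYMS, TK1, DUT and DCTPP1) and the lowest in 3 (RRM1, SAMHD1 and DTYMK). NSD2-2 left the lowest in 4, and NSD2-1 in the remaining 2, RRM2 and RRM2B. Relative to the Ctr-KD mean the median log2 value of the 9 genes was -0.59 with NSD2-1, -0.66 with NSD2-2 and -0.14 with NSD2-3. NSD2 itself was left at 19.9%, 18.1% and 19.4%, a narrow range beside that of TYMS.

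The S phase list of the Seurat package, less the members, lay on the same side as most of the 9 genes. All 37 of its tested genes had a log2 difference below 0, 2 were called lower (UHRF1, with an adjusted p = 0.0193, and ATAD2, with an adjusted p = 0.0471, from limma), beside 0.053% of all tested genes, and its median was -1.05. UHRF1, which keeps DNA methylation through replication, had 255 and 249.997 in Ctr-KD cells and 84.7, 87.4 and 102 in NSD2-KD cells, and ATAD2, a chromatin ATPase, had 152 and 139 against 59.8, 45.9 and 58.6. The list ran from DTL (log2 difference -2.56, adjusted p = 0.306 from limma) to UBR7 (-0.04, adjusted p = 0.960). DTL lay at -1.70 without NSD2-KD replicate 2, and DESeq2 called it (adjusted p = 0.00937). RRM2 lay below the median of the list, the other 8 members above it. Its median relative to the Ctr-KD mean was -0.68 with NSD2-1, -1.48 with NSD2-2 and -0.91 with NSD2-3, so the order of the siRNAs was not that of the members. Of 54 G2/M genes 53 lay below 0, with a median of -0.95. SMC4, a condensin subunit, was the 1 gene called lower, beside the same 0.053% (-1.07, adjusted p = 0.0322 from limma). MKI67 was lowest at -2.05 (adjusted p = 0.259 from limma) and HN1 highest at 0.03 (adjusted p = 0.964 from limma). In limma MKI67 was called without NSD2-KD replicate 1 (-2.59, adjusted p = 0.0238) and with the replicate number as a block (-1.53, adjusted p = 0.0169). The calls of UHRF1, ATAD2 and SMC4 were lost without either Ctr-KD library and with these averaged to 1, and those of ATAD2 and SMC4 also without NSD2-KD replicate 2 (adjusted p = 0.0558 and 0.0554 from limma), that of ATAD2 also without NSD2-KD replicate 1 (0.052), with no filter (0.0529) or with a minimum mean of 50 (0.0542). In libraries of whole cultures, fewer cells in S phase and less RNA per cell cannot be told apart, and the part of either in the members' values was not tested.

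Outside the members, the enzymes of nucleotide metabolism had a median log2 difference near 0. Single genes among them lay as far below 0 as TYMS and TK1. Of 88 genes in 7 lists, 74 were tested, of which 41 had a log2 difference below 0 and 33 above, with a median of -0.03. None of the 74 was called in either direction by limma, edgeR or DESeq2 (lowest adjusted p of 0.321, 0.268 and 0.457). At an unadjusted p under 0.05, limma had 6 lower (8.11%), beside 4.99% of all tested genes, and 1 higher (1.35%), beside 4.19%. In 16 of the 74 all NSD2-KD libraries lay below both Ctr-KD libraries, beside 13.9% of all tested genes, and in 5 above, beside 13.8%. The single gene on the higher side was MTHFD1L, a mitochondrial folate enzyme, and the 6 on the lower included SHMT1 (log2 difference -0.77), MTHFD1 (-0.41), SLC19A1 (-0.50), PRPS2 (-0.74) and GMPS (-0.40), named here after their values were seen.

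Of the folate cycle genes, which carry the carbon that TYMS uses, 9 of 13 lay below 0, with a median of -0.08. None of them passed the test. In limma 4 of the 13 were lower at an unadjusted p under 0.05, beside 4.99% of all tested genes, and 1 was higher, beside 4.19%. All NSD2-KD libraries lay below both Ctr-KD libraries in 5 of the 13, beside 13.9% of all tested genes, and above in 1, beside 13.8%. In purine synthesis 11 of 14 lay below 0, with a median of -0.21, from PPAT at -0.85 (adjusted p = 0.637 from limma) to PRPS1 at 0.11. PPAT, the first committed enzyme of the pathway, rested on 1 library, with 45.7 and 49.4 in Ctr-KD cells, 12.0 with NSD2-1 and 34.95 and 41.0 with the others, and without NSD2-KD replicate 1 its log2 difference was -0.32.

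The remaining lists were split between the directions and held no gene that passed. In pyrimidine synthesis 4 of 7 lay below 0, from CMPK1 at -0.31, where NSD2-2 had 146 and the other libraries 315 to 389, to DHODH at 0.18. Salvage enzymes, the kin of TK1, numbered 5 below and 5 above 0 of 10, from DCK at -0.24 to UCKL1 at 0.34, and nucleotide kinases, the kin of DTYMK, 4 below and 8 above of 12, from NME6 at -0.14 to AK5 at 0.26. Breakdown and pool cleaning enzymes, the class of DUT and DCTPP1, were 6 below and 8 above of 14, from PNP at -0.66 to DPYD at 0.39, and carriers 2 below and 2 above of 4, with SLC25A36 highest at 0.20. Genes that copy mitochondrial DNA, which draws on RRM2B outside S phase, were 3 below and 5 above of 8, with a median of 0.25, from POLG at -0.22 to TOP1MT at 0.43.

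**Figure D5:**
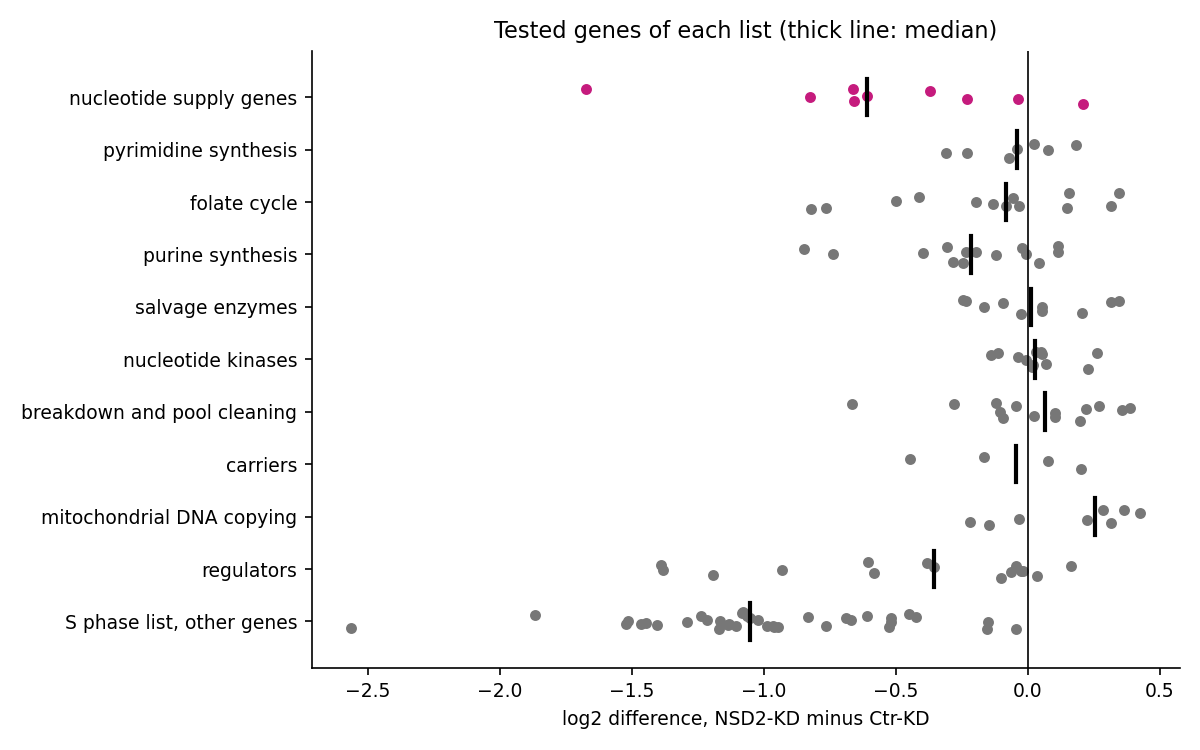
log2 difference between NSD2-KD and Ctr-KD cells for every tested gene of each list; points are genes and thick lines medians, with the 9 nucleotide supply genes colored. The medians lie at -0.61 for the supply genes, between -0.21 and 0.06 for the 7 other lists of nucleotide metabolism, at -0.36 for the regulators and at -1.05 for the S phase list without the members.

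Among 16 genes known to regulate the members, 15 were tested, 13 lay below 0 and 2 above, with a median of -0.36, and none passed the test, 5 being lower at an unadjusted p under 0.05, beside 4.99% of all tested genes. CCNF, cyclin F, which marks RRM2 protein for destruction in G2, was the lowest, with 144 and 145 in Ctr-KD cells and 66.3, 31.7 and 77.1 in NSD2-KD cells. Its NSD2-KD libraries were all below, at a log2 difference of -1.39 (standard error 0.34, adjusted p = 0.267 from limma), and DESeq2 called it (adjusted p = 0.0255). E2F1, an activator of genes of S phase, lay at -1.19 (adjusted p = 0.269 from limma). MDM2, like RRM2B a gene induced by DNA damage, had 349.6 and 392 in Ctr-KD cells and 261, 384.5 and 485 in NSD2-KD cells, so its siRNAs ran in the order seen for RRM2B while its log2 difference was -0.02. CDKN1A, also induced by DNA damage and an inhibitor of cyclin-dependent kinases, had 1851 and 1905 in Ctr-KD cells and 2455, 3955 and 3340 in NSD2-KD cells, all above and in another order (0.76, standard error 0.17, adjusted p = 0.237 from limma, 0.0398 from DESeq2).

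The genes whose pattern over the 5 libraries lay nearest to that of RRM2, by the root mean square difference of log2 values from the Ctr-KD mean, were UHRF1 (0.189), RFC3 (0.212), AMMECR1 (0.251), ASF1B (0.266) and ATAD2 (0.267). RFC3, a subunit of the clamp loader of replication, had 54.3 and 59.7 in Ctr-KD cells and 22.1, 20.8 and 19.5 in NSD2-KD cells. AMMECR1 had 109 and 88.5 against 41.4, 28.4 and 31.2, and ASF1B, a histone chaperone, 46.7 and 46.3 against 20.2, 12.0 and 14.6. Nearest to RRM2B were PANX1 (0.0697), MRVI1 (0.0719), PTPN4 (0.0721), TRIB2 (0.0729) and MFSD8 (0.0746). PANX1, a membrane channel, had 145 and 132 in Ctr-KD cells and 114, 169 and 223 in NSD2-KD cells, with NSD2-1 lowest and NSD2-3 highest as for RRM2B. All these genes were picked for likeness over the same libraries, so a shared order of siRNAs follows from the choice and is no further result.

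Some of the reads could belong to neighbours, because exons of 5 members share bases with a gene on the opposite strand and the strand setting of the counting is not given in the sources used here. TYMS shares 967 bases with ENOSF1 and 193 with the antisense RNA TYMSOS. ENOSF1 had 162 and 167 in Ctr-KD cells and 112, 88.5 and 152 in NSD2-KD cells (log2 difference -0.51, adjusted p = 0.525 from limma), the same order of siRNAs as TYMS. The ratio of TYMS to ENOSF1 normalized counts was 1.25 and 1.34 in Ctr-KD cells and 1.15, 1.07 and 1.28 in NSD2-KD cells, and TYMSOS had 21.9 and 31.9 against 18.4, 15.3 and 22.5. DCTPP1 shares 645 bases with ZNF771, which had 16.5 to 26.7 normalized counts, and SAMHD1 shares 1068 with TLDC2, which had 5.72 to 15.3. DUT shares 533 bases with DUT-AS1 and RRM1 63 with RRM1-AS1, while RRM2, RRM2B, TK1 and DTYMK share none with another annotated gene. For TYMS and ENOSF1 the reads of the shared bases cannot be told apart.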

How the data were processed

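mRNA was sequenced from IMR-90 cells in 2 Ctr-KD and 3 NSD2-KD libraries, grouped by the sample titles. The authors trimmed reads, mapped them to hg19 (GRCh37) with HISAT2, kept those with a unique position (SAMtools) and ran featureCounts. Its annotation and strand setting are not given in the sources used here. The deposited signal is the read count of a gene divided by 1 DESeq2 size factor per library. 100% of values were whole multiples of 1 read (tolerance 0.01), so reads were recovered. The authors' own DESeq2 comparison (fold changes and p-values) was not used.

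limma 3.58.1 (R 4.3.3), with a mean-variance trend and no covariates, was fitted to log2(normalized count + 1) of 11313 genes with a mean of at least 10, two-sided, with p-values adjusted after Benjamini and Hochberg and called under 0.05. On simulated data it called 192 of 192 tested genes changed 4-fold and 9 unchanged genes, among 11284. All genes were simulated with the same spread between libraries (dispersion 0.01), whereas in the data DTL was left uncalled at a log2 difference of -2.56. The simulation therefore does not show that genes left uncalled in the data were unchanged. Alternatives included edgeR 4.0.16 and DESeq2 1.42.0 on the recovered reads.

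The members and the lists were chosen with earlier results of these data known. The S phase and G2/M lists came with Seurat 5.3.0. The genes named are the members, NSD2, genes of the lists that passed, the lowest and highest of each list (some of these genes are not reported here), the 5 nearest to RRM2 and to RRM2B, genes sharing exon bases with a member, and CDKN1A. E2F1, MDM2 and the genes at an unadjusted p under 0.05 were added after their values were seen. Transcript lengths and positions are those of canonical transcripts of GENCODE on GRCh37.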

Additional observations from a re-analysis of the deposited data

How the results depend on the processing

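Settings tried were pseudocounts 0.5 and 5, a minimum mean of 50 or none, limma without its trend, robust or after quantile, TMM or upper-quartile scaling, limma-voom, edgeR, DESeq2, the replicate number as a block, each replicate left out and, added after seeing the data, the Ctr-KD libraries averaged to 1. Members called lower, 1 as reported, became 2 with DESeq2, 3 with the replicate block, 0 without the trend or with averaged Ctr-KD libraries, and ranged from 0 to 1 with a replicate left out. All genes called lower, 6 as reported, became 44 with DESeq2, 11 with edgeR, 1 without the trend, 84 with the block and 0 with averaged Ctr-KD libraries, and ranged from 0 to 22 with a replicate left out. All genes called higher, 4 as reported, became 14, 5, 0, 18 and 0 in that order, 8 after quantile normalization, and 0 to 8 with a replicate left out. Members called higher and other nucleotide metabolism genes called in either direction were 0 in every setting. The call of NSD2 itself was lost without either Ctr-KD library (adjusted p of 0.0927 and 0.0758 from limma) and with these averaged (0.0835), and those of UHRF1, ATAD2 and SMC4 without the trend (0.112, 0.209 and 0.209).

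The replicate numbers of the NSD2-KD libraries are those of the siRNAs, and the block leaves NSD2-3 without a partner. The correlation of deviations was -0.015 for number 1 and -0.027 for number 2. It cannot decide whether libraries were paired, because the Ctr-KD libraries differed by little more than counting noise. Leaving out a Ctr-KD library assumes that the other varies like the NSD2-KD libraries. Some values near 0 changed sign. After quantile normalization SAMHD1 lay at 0.0117 and UBR7 at 0.00164. With the block, as without NSD2-KD replicate 3, SAMHD1 lay at 0.0049, HN1 at -0.049, TRIB2 at -0.030 and MFSD8 at -0.035. With a replicate left out, the log2 differences ranged from -0.075 to 0.0049 for SAMHD1, -0.048 to 0.40 for ZNF771, -0.57 to 0.13 for CMPK1, -0.057 to 0.29 for PRPS1, -0.14 to 0.019 for UBR7, -0.049 to 0.12 for HN1, -0.030 to 0.34 for TRIB2 and -0.035 to 0.33 for MFSD8. The causes were not tested. Depth limits DCTPP1 and SAMHD1 most, with 43 to 84 reads per library.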
